A study of Homo sapiens with 4 samples.

Results

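The BCL2 family members described here are 10 genes that set the threshold for mitochondrial apoptosis: MCL1, BCL2L1, BCL2, BAX, BAK1, BID, BCL2L11, BBC3, PMAIP1 and BIK. They were chosen by name, and each matched 1 gene ID among the 60614 in the count tables. All 10 passed the filter on low counts and were among the 17539 genes tested. The RNA-seq libraries came from DU145, a cell line long established from a human prostate carcinoma. One genotype was wild-type for SPOP and the other carried the F133V mutant. The SPOP protein picks the substrates of a ubiquitin ligase built on cullin 3. Both genotypes were grown in the same medium with serum, without any labelled treatment, and each had 2 libraries, with 35173245 to 39642063 reads counted in genes. The labels do not say whether the mutant cells are 1 clone, a pool or an overexpression line, nor whether the replicates are separate cultures. The p-values therefore measure the spread between these libraries only. Effects of the mutation and of how the cells were made cannot be told apart.

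The BCL2 family controls whether the mitochondrial outer membrane is breached, the step that releases cytochrome c and starts the caspase cascade. Guardian proteins such as MCL1, BCL-XL (the product of BCL2L1) and BCL2 hold the pore formers BAX and BAK in check. BH3-only proteins, among them BIM (BCL2L11), PUMA (BBC3), NOXA (PMAIP1), BID and BIK, bind the guardians through a short helix and in some cases activate the pore formers directly. MCL1 protein is short-lived, and its amount depends on both its synthesis and its degradation. No protein was measured here. DU145 cells are known to lack BAX protein because of frameshift mutations, which counts per gene do not show.

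In F133V cells SPOP stood at 1171 and 1151 CPM (counts per library total, scaled by TMM), against 844 and 906 CPM for wild-type. Mutant and wild-type SPOP transcripts are counted together. The epithelial genes KRT8, KRT18, KRT19, EPCAM and CDH1 were well expressed, and KRT5 had no read. KLK2 and KLK3, markers of secretory prostate cells that are listed as absent in DU145, had no read. The 7 listed markers of a prostate epithelial cell line summed to 3961 and 4269 CPM in F133V and 3428 and 3453 CPM in wild-type cells. VIM made up 1719 and 1829 CPM of this sum in F133V and 1593 and 1620 CPM in wild-type cells. The sum is thus not one of epithelial genes alone. All 6 markers tested were called higher in both fits. Summed over 5 genes, hematopoietic markers came to 2.07 and 2.52 CPM in F133V and 1.32 and 1.85 CPM in wild-type cells, nearly all of it CD14, with CD3E and HBB at 0. The 5 fibroblast and endothelial markers came to 8.15 and 8.84 CPM in F133V and 6.62 and 6.87 CPM in wild-type cells, mostly COL1A1. The part of these markers in the results was not tested. Across all genes, fold changes tracked transcript GC content: from the lowest to the highest of 20 bins, the median log2 difference ran from -0.69 to 0.37. The F133V replicates differed from each other along the same trend, by medians of -0.18 to 0.17 (replicate 2 minus replicate 1), and the wild-type replicates by -0.0033 to 0.027. Fold changes are therefore given from the TMM-scaled fit and from a fit with an offset for GC content and transcript length. The part of this trend in any member's difference was not tested otherwise.

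MCL1 mRNA was lower and BBC3 and BCL2L11 mRNA were higher in F133V cells, and these 3 calls passed in both fits and under each of 14 alternative settings. MCL1 fell to 0.607 of its wild-type level, BBC3 rose 2.31-fold and BCL2L11 rose 1.40-fold. BCL2L1, the other abundant guardian, and the pore former BAK1 had the same TMM-scaled level in both genotypes within the spread between replicates. PMAIP1 was lower and BIK higher before the GC adjustment and neither passed after it. In all, 4 of the 10 members were called higher and 2 lower by edgeR's quasi-likelihood test (adjusted p under 0.05), beside 54.8% of all tested genes called, 27.2% as higher and 27.6% as lower. With GC and length adjusted, 3 members were called higher and 4 lower, beside 52.2% of all tested genes, 27.6% as higher and 24.5% as lower. The members' count is near these shares, so it does not set the family apart. The levels of the 2 genotypes did not overlap for 8 of the 10 members, beside 78% of all tested genes. The median log2 fold change of the members was 0.019, beside 0.022 over all tested genes. With upper-quartile scaling the median over all genes moved to 0.13, and calls were 62.8% higher in place of 49.6%.

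**Figure D1:**
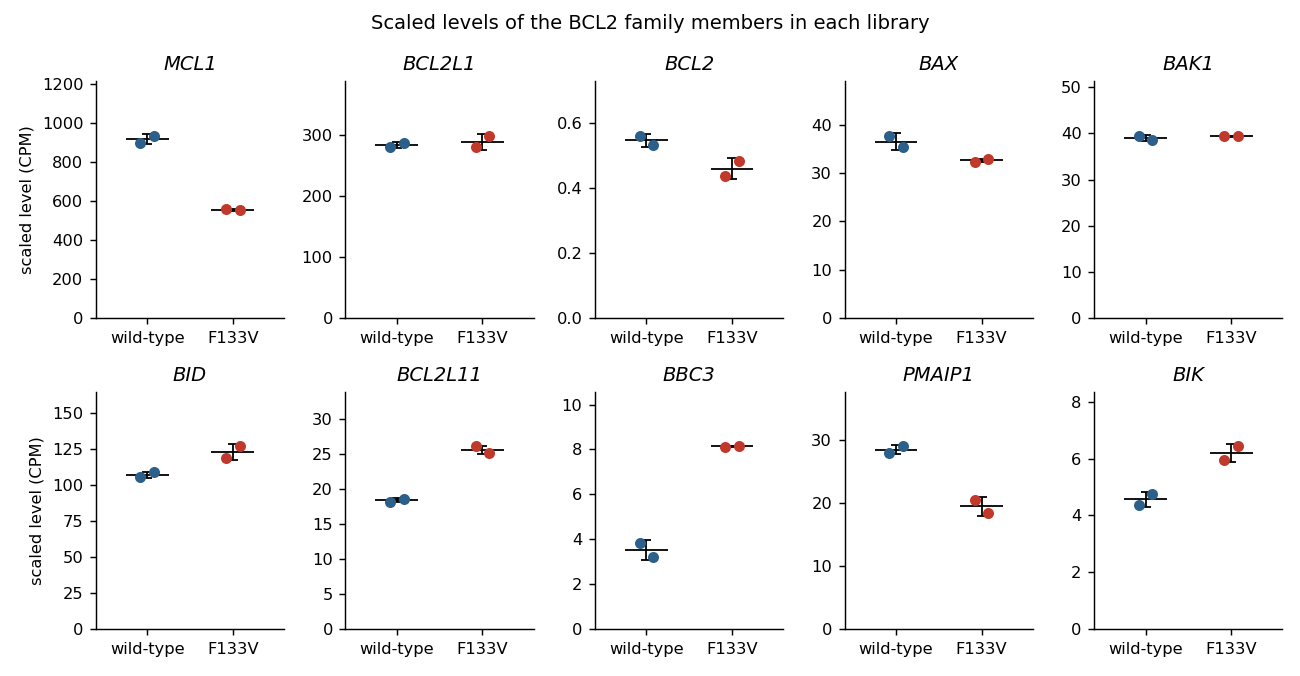
Scaled level (CPM, each vertical axis from 0) of the 10 members in each library; points are libraries, horizontal lines the means and bars the SD of 2 libraries. MCL1 (900.2 and 936 CPM in wild-type, 561 and 553 CPM in F133V cells) and BBC3 (3.85 and 3.19 CPM in wild-type, 8.12 and 8.13 CPM in F133V cells) had the largest TMM-scaled fold changes of the members.

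MCL1 (ENSG00000143384.14, chromosome 1, 150574551 to 150579738 on the minus strand; GRCh38 throughout) encodes the guardian that restrains BAK and binds NOXA with high affinity. F133V libraries 1 and 2 had 561 and 553 CPM, and wild-type libraries 1 and 2 had 900.2 and 936 CPM, or 557 ± 5.74 and 918 ± 25 CPM (SD, n = 2 each). Both F133V libraries lay far below both wild-type libraries. The log2 fold change was -0.72 ± 0.054 (SE; edgeR quasi-likelihood F-test, BH-adjusted p = 1.65e-09). The GC-adjusted value was -0.58 ± 0.033 (adjusted p = 7.28e-18). A value this low or lower was found in 8.87% of tested genes, and in 4.51% after the adjustment. No annotated exon of another gene overlaps those of MCL1, and it had 19527 to 35342 reads per library. Gene counts do not separate the long, protective MCL1 isoform from the short one.

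BCL2L1 (ENSG00000171552.14, chromosome 20, 31664452 to 31723989, minus strand) encodes BCL-XL, a long-lived guardian that binds BIM, PUMA, BAK and BAX. It was measured at 279 and 298 CPM in the F133V libraries and at 279 and 287 CPM in the wild-type libraries, so the genotypes overlapped. The log2 fold change was 0.025 ± 0.058 (edgeR BH-adjusted p = 0.741). With GC and length adjusted it was -0.22 ± 0.033 and passed (edgeR BH-adjusted p = 6.84e-07), so the direction of BCL2L1 depends on the adjustment. Exons of the antisense gene ABALON cover 43.0% of its exonic bases, where reads may have gone uncounted; ABALON itself was at 0.420 to 0.611 CPM.

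BCL2 (ENSG00000171791.14, chromosome 18, 63123346 to 63320128, minus strand), the founding guardian of the family, was barely transcribed in DU145 cells of either genotype. Its reads numbered 16 and 17 in F133V cells and 22 and 19 in wild-type cells. That is 0.436 and 0.482 CPM against 0.560 and 0.532 CPM, with a log2 fold change of -0.25 ± 0.32 (edgeR BH-adjusted p = 0.536; GC-adjusted -0.084, adjusted p = 0.855). Its low counts set that wide SE, and a small change was not detectable at this depth.

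The balance within the guardians moved from MCL1 towards BCL2L1. Per kilobase of the longest transcript, the scale on which genes are compared here, MCL1 made up 63.4% and 63.8% of the summed level of 6 guardians (MCL1, BCL2L1, BCL2, BCL2L2, BCL2A1 and BCL2L10) in the wild-type libraries. In the F133V libraries its share was 51.9% and 50.6%, and the share of BCL2L1 was 38.8% and 41.0%, against 29.7% and 29.5% in wild-type cells. The ratio of MCL1 to BCL2L1 per kilobase was 1.34 and 1.23 in F133V cells and 2.14 and 2.16 in wild-type cells. A ratio within a library does not depend on library scaling. As a difference of log2 fold changes, MCL1 minus BCL2L1 was -0.74, and -0.36 after the GC adjustment. These ratios are given without a test; the smallest p that an exact permutation test of 2 libraries against 2 allows is 0.333.

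**Figure D2:**
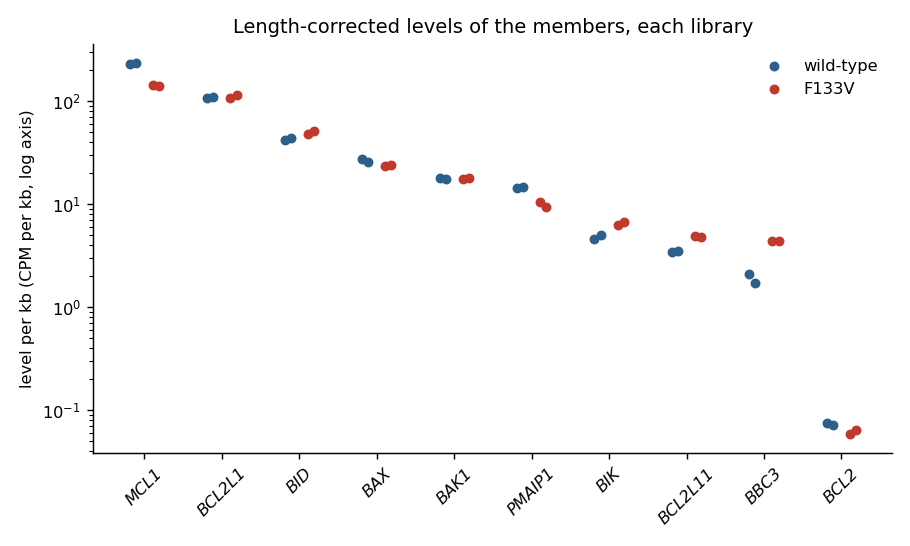
Level per kilobase of longest transcript (CPM per kb, log axis) of each member in each library, ordered by the wild-type mean. The order was the same in both genotypes, from MCL1 (233 in wild-type and 142 in F133V cells) to BCL2 (0.0732 and 0.0615).

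The order of the per-kilobase levels was the same in both genotypes: MCL1, BCL2L1, BID, BAX, BAK1, PMAIP1, BIK, BCL2L11, BBC3 and BCL2. Wild-type means ran from 233 ± 6.35 CPM per kb for MCL1 and 108 ± 2.04 for BCL2L1 through 43.1 ± 0.765 for BID, 26.9 ± 1.23 for BAX and 17.7 ± 0.293 for BAK1 to 1.92 ± 0.251 for BBC3 (SD, n = 2 each). No neighbours in this order overlapped between libraries in either genotype. BCL2L11 and BBC3 came closest in F133V cells, at 4.90 ± 0.119 and 4.42 ± 0.00549 CPM per kb (SD, n = 2 each). With the length of all exons merged in place of the longest transcript, BAK1 stood above BAX (17.7 against 14.1 CPM per kb in wild-type cells), and the rest of the order was kept.

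The pore formers BAX and BAK1 were close to equal between genotypes before the GC adjustment and lower in F133V cells after it. BAX (ENSG00000087088.20, chromosome 19, 48954815 to 48961798, plus strand) was at 32.3 and 32.8 CPM in the F133V libraries and 37.7 and 35.3 CPM in the wild-type libraries. The groups did not overlap, and the log2 fold change of -0.17 ± 0.074 missed the threshold (edgeR BH-adjusted p = 0.0658). It passed with GC and length adjusted (-0.46 ± 0.052, edgeR BH-adjusted p = 9.09e-10). The TMM-scaled value was -0.19 without F133V replicate 1 and -0.18 without F133V replicate 2. Without wild-type replicate 1 or 2 it was -0.12 and -0.22. BAK1 (ENSG00000030110.13, chromosome 6, 33572547 to 33580293, minus strand) was at 39.4 and 39.5 CPM in F133V cells and at 39.5 and 38.6 CPM in wild-type cells, which overlap. Its log2 fold change was 0.014 ± 0.071 (edgeR BH-adjusted p = 0.888), and -0.26 ± 0.050 with the adjustment (adjusted p = 2.63e-05). As BAX protein is known to be missing from this line, BAK is the pore former usually assigned its mitochondrial death signal.

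The 250 bases before the RefSeq start of BAX (GRCh38.p14, chr19:48954625-48954874, plus strand) are shown for their repeated E-boxes, in capitals. The E-box searched, CACGTG, reads the same on both strands and is a binding motif of MYC, whose mRNA is described among the regulators.
BAX: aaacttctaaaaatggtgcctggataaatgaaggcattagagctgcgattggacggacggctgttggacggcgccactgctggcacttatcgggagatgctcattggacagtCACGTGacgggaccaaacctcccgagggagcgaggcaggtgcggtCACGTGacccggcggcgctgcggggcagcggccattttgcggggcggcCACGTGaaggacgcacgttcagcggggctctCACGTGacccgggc
The window holds 4 E-boxes, at positions -138, -93, -45 and -14 from the start. At least 1 was found in 6.34% of 35116 RefSeq promoter windows of this length, and 4 or more in 0.0142%. The BAX window was picked for its E-boxes after the search, so these shares are no test of it. A match describes the letters only and is not evidence of binding.

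Among the BH3-only members, BBC3 and BCL2L11 rose in both fits, and BID, BIK and PMAIP1 were less settled. BBC3 (ENSG00000105327.18, chromosome 19, 47220822 to 47232766, minus strand) encodes PUMA, a BH3-only protein that binds all the guardians. Its level was 8.12 and 8.13 CPM in the F133V libraries and 3.85 and 3.19 CPM in the wild-type libraries, from 298 and 287 reads against 151 and 114. Both F133V libraries lay above both wild-type libraries. The log2 fold change was 1.20 ± 0.12 (edgeR BH-adjusted p = 8.76e-08), and 2.65% of tested genes rose as much or more. With GC and length adjusted it was 0.73 ± 0.12 (edgeR BH-adjusted p = 1.85e-06), and 6.42% of genes reached that value. At 69.7% the GC content of BBC3 is the highest of the members and lies beyond the median of the top GC bin, 66.0%.

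BCL2L11 (ENSG00000153094.24, chromosome 2, 111119378 to 111168447, plus strand) encodes BIM, a strong activator of BAX and BAK that ERK signalling marks for degradation and FOXO factors can induce. It was measured at 26.1 and 25.2 CPM in the F133V libraries and at 18.2 and 18.6 CPM in the wild-type libraries. Both F133V libraries were higher and the groups did not overlap. The log2 fold change was 0.48 ± 0.080 (edgeR BH-adjusted p = 3.41e-05) and 0.60 ± 0.060 after the adjustment (adjusted p = 3.51e-11). BCL2L11 is thus the one called BH3-only member whose rise was larger with GC content taken into account. Exons of the lncRNA gene MIR4435-2HG on the other strand cover 10.9% of its exonic bases; that lncRNA was lower in F133V cells (33.2 against 37.9 CPM).

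BBC3 and BCL2L11 rose together, so the 250 bases before their RefSeq starts (GRCh38.p14) are shown, with matches to 5 searched motifs in capitals. BBC3 lies at chr19:47232668-47232917 on the minus strand and BCL2L11 at chr2:111120664-111120913 on the plus strand.
BBC3: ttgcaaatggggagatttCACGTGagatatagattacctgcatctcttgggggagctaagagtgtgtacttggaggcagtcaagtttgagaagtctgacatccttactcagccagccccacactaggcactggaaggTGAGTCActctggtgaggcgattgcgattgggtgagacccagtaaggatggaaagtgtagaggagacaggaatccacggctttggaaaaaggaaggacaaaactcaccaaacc
BCL2L11: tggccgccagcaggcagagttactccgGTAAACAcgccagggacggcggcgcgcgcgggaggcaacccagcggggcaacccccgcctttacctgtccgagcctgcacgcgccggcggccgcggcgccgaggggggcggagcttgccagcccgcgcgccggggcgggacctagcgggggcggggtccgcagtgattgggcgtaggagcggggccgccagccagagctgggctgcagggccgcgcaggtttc
The motifs were AP-1 (TGANTCA), CRE (TGACGTCA), E-box (CACGTG), FOXO (GTAAACA) and E2F (TTTNGCGC), each on both strands. GC boxes (GGGCGG) were also searched and are not marked: BBC3 holds 0 and BCL2L11 holds 3, and 42.6% of all promoter windows hold at least 1. BBC3 holds 1 E-box and 1 AP-1 match, at positions -232 and -113 from the start, and BCL2L11 holds 1 FOXO match at -223. An AP-1 match was found in 6.57% of all promoter windows and a FOXO match in 2.98%. BMF and HRK, BH3-only genes outside the members, rose more (TMM-scaled log2 fold changes 1.61 and 1.57). Their windows hold no match to any of these 5 motifs. The windows also differ in composition, with a GC content of 49.2% for BBC3 and 76.8% for BCL2L11, beside a median of 58.0% over all windows.

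BID (ENSG00000015475.19, chromosome 22, 17734138 to 17774770, minus strand) carries the death receptor signal to mitochondria once caspase-8 cuts it, and was the most abundant BH3-only member. Its level was 119 and 127 CPM in F133V cells and 106 and 109 CPM in wild-type cells, without overlap. It rose by a log2 fold change of 0.20 ± 0.063 (edgeR BH-adjusted p = 0.0118), and by 0.11 ± 0.038 with GC and length adjusted (adjusted p = 0.0101). The TMM-scaled call was lost without wild-type replicate 1 (adjusted p = 0.282) or wild-type replicate 2 (adjusted p = 0.193). The adjusted call was lost without F133V replicate 2 (adjusted p = 0.0655) or wild-type replicate 1 (adjusted p = 0.195).

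PMAIP1 (ENSG00000141682.12, chromosome 18, 59899948 to 59904306, plus strand) encodes NOXA, which binds MCL1 and drives its degradation. It was at 20.5 and 18.4 CPM in the F133V libraries and 28 and 29 CPM in the wild-type libraries, so both F133V libraries were lower. The TMM-scaled log2 fold change of -0.55 ± 0.082 passed (edgeR BH-adjusted p = 1.03e-05). PMAIP1 has the lowest GC content of the members, 37.2%, and with GC and length adjusted its value was 0.025 ± 0.058 (edgeR BH-adjusted p = 0.749). Its TMM-scaled difference lay near that of genes of like GC content, whose median was -0.59 in the bin at 37.9% GC.

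BIK (ENSG00000100290.3, chromosome 22, 43110748 to 43129712, plus strand), a BH3-only protein of the endoplasmic reticulum, was at 5.97 and 6.43 CPM in F133V cells and 4.38 and 4.76 CPM in wild-type cells. The log2 fold change was 0.44 ± 0.12 (edgeR BH-adjusted p = 0.00429). The BIK call was lost with GC and length adjusted (0.17 ± 0.11, adjusted p = 0.204), in DESeq2 (adjusted p = 0.0581) and without wild-type replicate 1 (adjusted p = 0.0840). BIK had 170 to 227 reads per library.

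**Figure D3:**
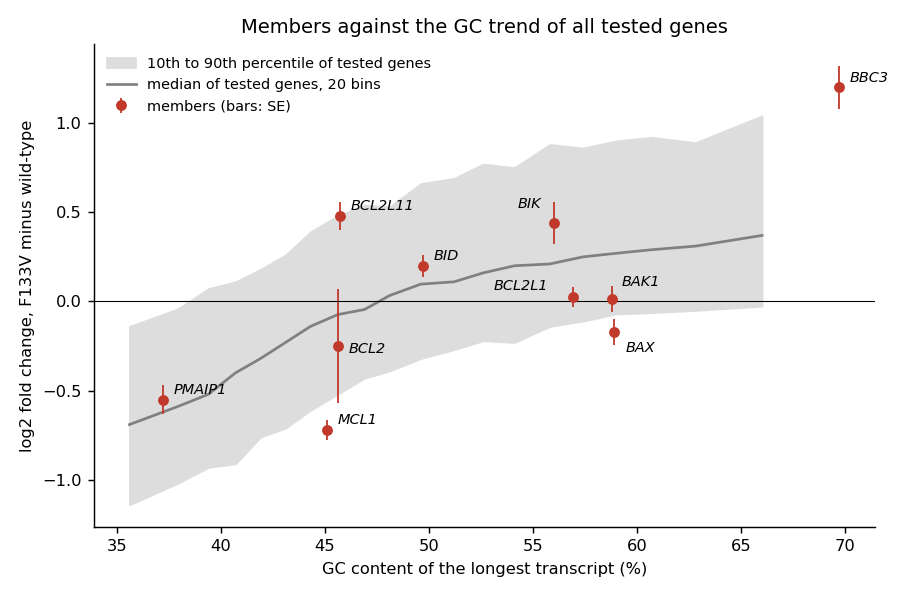
Log2 fold change (F133V minus wild-type, TMM-scaled) of the members against the GC content of their longest transcript; bars are SE, the line is the median and the band the 10th to 90th percentile of all tested genes in 20 GC bins. PMAIP1 (-0.55) sits on the trend, MCL1 (-0.72) below the band, and BBC3 above the band of the last bin.

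Among other genes of the family, the BH3-only genes BMF and HRK had the largest rises in both fits. Of 14 further family genes 13 were tested, and edgeR called 5 higher and 3 lower. With GC and length adjusted 4 were higher and 3 lower. The median log2 fold changes were 0.087 before and -0.037 after the adjustment. For this and the lists below, the share called over all tested genes was 54.8%, and 52.2% with GC and length adjusted. BMF, a BH3-only protein bound to the cytoskeleton through a dynein light chain, was at 18.9 and 18.8 CPM in F133V cells and 6.24 and 6.08 CPM in wild-type cells. That is 3.06-fold, a log2 fold change of 1.61 ± 0.095 (edgeR BH-adjusted p = 1.27e-10), and 1.45 ± 0.082 after the adjustment. HRK, a BH3-only protein best known in neurons, stood at 1.06 and 1.25 CPM against 0.306 and 0.476 CPM, a low level with a log2 fold change of 1.57 ± 0.30 (edgeR BH-adjusted p = 1.46e-04; 1.55 adjusted). Both passed under all 14 alternatives.

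The remaining called relatives depended more on the processing. BAD, which is switched off by survival kinases, and BOK, a BAX-like protein, had TMM-scaled values of 0.30 ± 0.071 and 0.30 ± 0.076 and passed, but after the adjustment they were at -0.086 and -0.043 and did not pass. BCL2L12 passed as higher (0.18, edgeR BH-adjusted p = 0.0476) and after the adjustment as lower (-0.11, adjusted p = 0.0396). BNIP3L, a mitophagy receptor, fell (-0.48 ± 0.061) and was at 0.065 after the adjustment, where it did not pass, whereas its paralog BNIP3 fell in both fits (-0.24 ± 0.056 and -0.34 ± 0.033). The BNIP3 call was lost with upper-quartile scaling (-0.12, edgeR BH-adjusted p = 0.0703) and, before the GC adjustment, without wild-type replicate 1 (adjusted p = 0.0758) or 2 (adjusted p = 0.0977). BCL2L15 was called lower at 0.0817 to 0.364 CPM, a trace level, and the call held in 8 of 13 alternatives. It was lost without wild-type replicate 2 (adjusted p = 0.11 in edgeR) and in each GC-adjusted fit with 1 library left out (adjusted p = 0.0608 to 0.177). Without wild-type replicate 1 or 2, the called relatives numbered 4 and 3 in place of 8. The guardian BCL2L2 was at 24.7 CPM in F133V and 24.0 CPM in wild-type cells and did not pass in either fit. BCL2A1, an NF-kB-induced guardian, was at 17.3 CPM in F133V and 18.2 CPM in wild-type cells and passed only with the adjustment (0.35 ± 0.066, adjusted p = 2.14e-05); BCL2L2 and BCL2A1 are named after their values were seen.

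**Figure D4:**
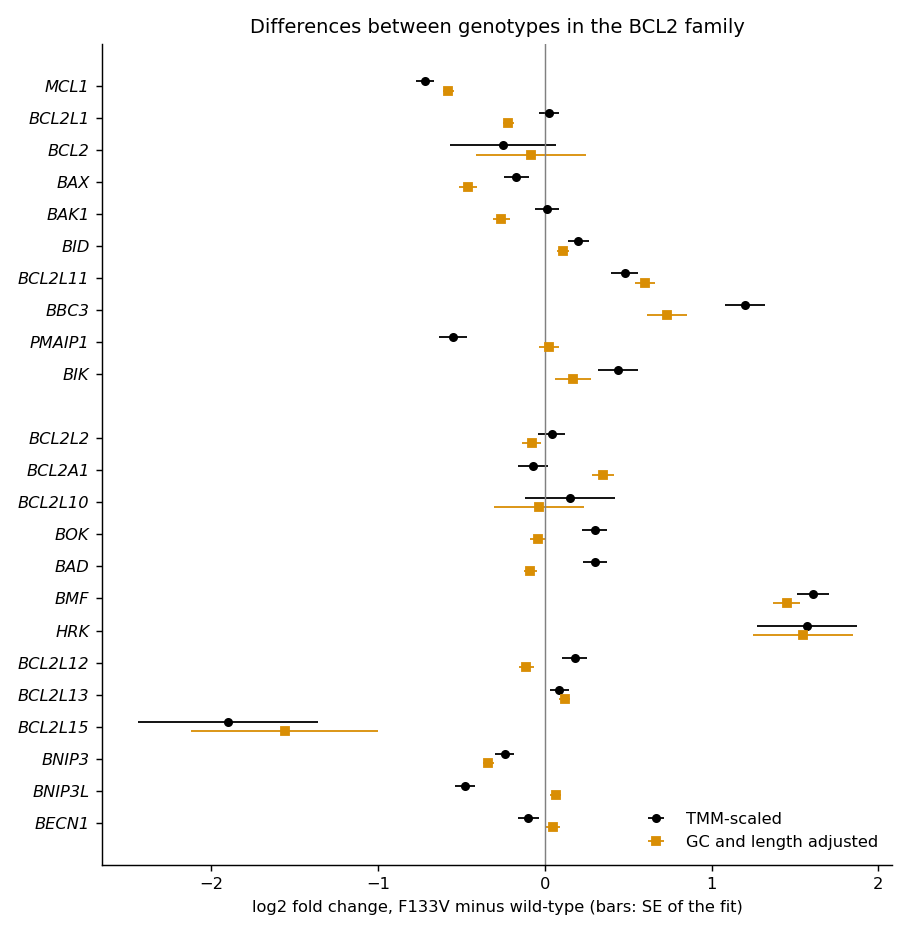
Log2 fold change (F133V minus wild-type, bars SE) of the 10 members (top) and 13 further tested family genes (bottom), TMM-scaled (circles) and with GC and length adjusted (squares). MCL1, BBC3, BCL2L11, BMF and HRK keep their side of 0 in both fits, whereas PMAIP1, BAK1, BCL2L1, BAD, BOK, BCL2L12, BNIP3L and BCL2A1 are among those that change side.

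Summed per kilobase, the level of the 6 guardians was 275 and 278 CPM per kb in F133V cells and 361 and 373 CPM per kb in wild-type cells, a fold of 0.754. The 8 BH3-only genes, with BAD, BMF and HRK added to the members, came to 144 and 156 CPM per kb in F133V cells and 125 and 128 CPM per kb in wild-type cells. BAD, whose direction depends on the fit, made up 66.2 and 75 CPM per kb of this sum in F133V cells and 56.8 and 58.2 in wild-type cells. Without it, an alternative chosen after seeing the data, the sums were 78.2 and 80.6 against 68.4 and 70.1 CPM per kb. BAX, BAK1 and BOK together came to 60.2 and 63.2 CPM per kb in F133V cells and 61.8 and 59.6 CPM per kb in wild-type cells, which overlap. All these sums are of levels before the GC adjustment. After it, BAX (-0.46) and BAK1 (-0.26) were called lower, and BOK was at -0.043 and not called. The level of BBC3 was 3.09% and 3.14% of that of MCL1 per kilobase in F133V cells and 0.914% and 0.731% in wild-type cells. For BCL2L11 it was 3.49% and 3.42% in F133V cells and 1.52% and 1.49% in wild-type cells. The ratio to MCL1 was thus 3.79-fold higher for BBC3 and 2.3-fold higher for BCL2L11, and from the GC-adjusted fold changes, also computed after seeing the data, 2.48-fold and 2.27-fold. These are mRNA levels, and in bulk libraries fewer expressing cells and less RNA per cell cannot be told apart.

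Downstream of the pore, cytochrome c mRNA was lower in F133V cells. Of 11 apoptosome and caspase genes tested, 2 were called higher and 4 lower, and with GC and length adjusted 0 were higher and 2 lower. CYCS, which encodes cytochrome c, was at 123 and 119.9 CPM in F133V cells and 217 and 218 CPM in wild-type cells. It fell by a log2 fold change of -0.84 ± 0.059 (edgeR BH-adjusted p = 8.40e-10) and by -0.46 ± 0.036 after the adjustment. APAF1, the scaffold of the apoptosome, had a TMM-scaled value of -0.54 ± 0.082 and passed, and it did not pass after the adjustment (-0.12). CASP2 had -0.26 ± 0.079 and -0.0026 in the same order. Without wild-type replicate 2, 3 genes of this list were called in place of 6.

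Of 13 outer membrane and adaptor genes, 1 was called higher and 6 lower, and with GC and length adjusted 4 higher and 4 lower. VDAC2, a channel protein that binds BAK at the membrane, rose in both fits (0.22 ± 0.055 and 0.28 ± 0.033). SFN, the 14-3-3 protein sigma, fell in both (-0.25 ± 0.063 and -0.57 ± 0.034). Before the GC adjustment, the VDAC2 call was lost without wild-type replicate 1 (adjusted p = 0.133 in edgeR) or 2 (adjusted p = 0.139), and the SFN call without wild-type replicate 1 (adjusted p = 0.118) or with upper-quartile scaling (adjusted p = 0.0764). The 14-3-3 genes YWHAZ (-0.40 ± 0.053) and YWHAB (-0.23 ± 0.055) fell before the adjustment and were at 0.058 and 0.059 after it, where neither passed. The calls of this list depended on scaling: 2 genes were called with upper-quartile scaling in place of 7. Fewer genes were also called without wild-type replicate 1 or 2, in fits whose spread came from the F133V pair alone.

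Of 7 inhibitor of apoptosis genes, 0 were called higher and 4 lower, and with GC and length adjusted 1 higher and 3 lower. Over all tested genes 54.8% were called (27.6% as lower), and 52.2% (24.5% as lower) with the adjustment. BIRC2, which encodes cIAP1, fell (-0.74 ± 0.070, and -0.15 ± 0.038 adjusted), as did BIRC6, a giant ubiquitin ligase that restrains caspases (-0.76 ± 0.065 and -0.39 ± 0.036). XIAP, a direct caspase inhibitor, passed before the adjustment (-0.59 ± 0.074) and not after it (0.031). BIRC3, which encodes cIAP2, was called lower before the adjustment (-0.33 ± 0.071) and higher after it (0.39 ± 0.035), so its direction depends on the fit. With a GC content of 34.8% its transcript is among the lowest in these lists.

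Genes known to stabilise and genes known to degrade MCL1 protein were both among those that fell. Of 10 such genes 9 were tested, 0 were called higher and 4 lower, and with GC and length adjusted 1 higher and 3 lower. The deubiquitinases USP13 (-0.72 ± 0.089, and -0.47 ± 0.068 adjusted) and USP9X (-0.67 ± 0.068, and -0.11 ± 0.036 adjusted), both known to stabilise MCL1 protein, fell; the GC-adjusted USP9X call was lost without wild-type replicate 1 (adjusted p = 0.184 in edgeR). FBXW7, a ligase adaptor that targets MCL1 for degradation, also fell (-0.56 ± 0.12, and -0.45 ± 0.11 adjusted). GSK3B had -0.42 ± 0.066 and passed, and was at -0.0071 after the adjustment. Without F133V replicate 1, 8 genes of this list were called in place of 4.

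Genes that regulate transcription of family members were mostly called higher before the GC adjustment, and the calls were more mixed after it. Of 16 such genes 15 were tested, 11 were called higher and 1 lower, and with GC and length adjusted 6 higher and 3 lower; the medians were 0.27 and 0.10. DDIT3, the stress factor CHOP, was at 39.0 and 36.2 CPM in F133V cells and 26.6 and 24.7 CPM in wild-type cells (log2 fold change 0.55 ± 0.078, edgeR BH-adjusted p = 5.50e-06; 0.43 adjusted). Its exons overlap those of other genes over 39.6% of their bases. JUN, an AP-1 subunit, rose (0.47 ± 0.072 and 0.26 ± 0.040), and so did MYC (0.39 ± 0.063 and 0.21 ± 0.037). ATF4 passed before the adjustment (0.31 ± 0.055) and not after it (0.054). FOXO3 was the gene called lower (-0.30 ± 0.074), and it was also called lower after the adjustment (-0.27 ± 0.052). FOXO1 passed in neither fit (0.0047 and 0.10). FOXO4 passed as higher before the adjustment only (0.38 ± 0.097, and 0.17 adjusted). The FOXO genes are named after their values were seen. Without wild-type replicate 2, 5 genes of this list were called in place of 12.

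**Figure D5:**
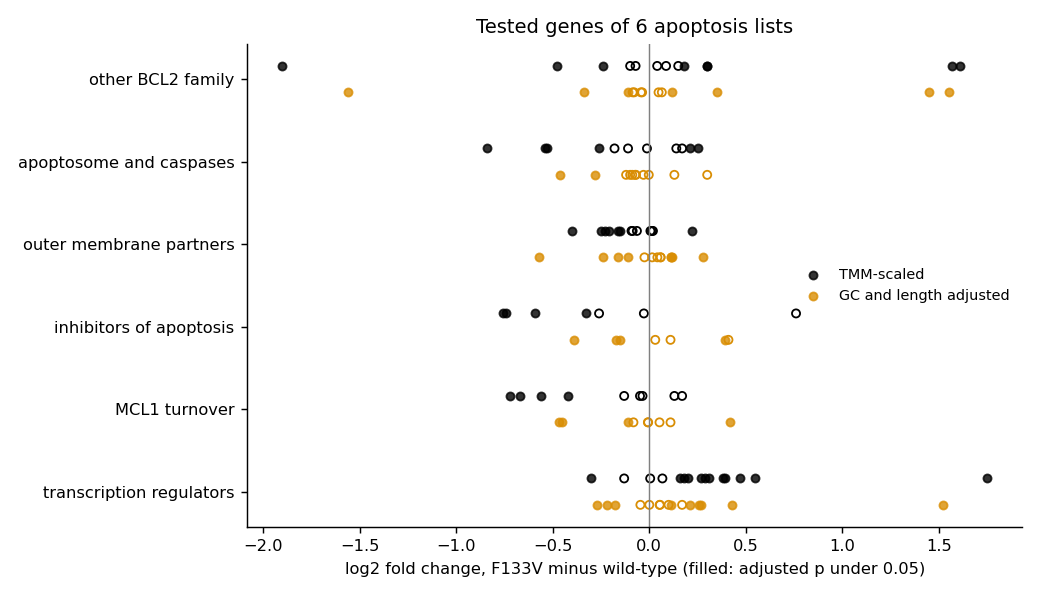
Log2 fold change (F133V minus wild-type) of each tested gene in 6 lists around the BCL2 family, TMM-scaled (black) and with GC and length adjusted (orange); filled points have an adjusted p under 0.05. Inhibitors of apoptosis lie mostly below 0 before the adjustment (4 called lower) and on both sides after it (3 lower and 1 higher).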

How the data were processed

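Per the submitters' processing notes, the authors used TopHat2 2.0.10, HTSeq 0.6.0 and hg38, and they deposited raw read counts per gene from single reads of 75 bases. Annotation release and strand use: not given in the sources used here. HTSeq's tallies stayed out of library sizes: reads over no gene (6.12% to 6.53% of reads), over more than 1 gene (3.50% to 3.73%) and with several alignments (13.6% to 16.6%, highest in F133V replicate 2). Symbols came from a name table (60444 of 60614 IDs), positions, lengths and GC content from GENCODE release 29 (58368 IDs), and promoter sequences from RefSeq (GRCh38.p14), in which 8 of the 10 members had an entry. MCL1 and BIK had none.

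edgeR 4.0.16 in R 4.3.3 tested the counts (filterByExpr, TMM, two-sided quasi-likelihood F-test; p-values of the 17539 genes adjusted by Benjamini and Hochberg's method, BH, threshold 0.05), with no replicate term. SEs were derived as log2 fold change over root F. The GC and length offset is a smooth of each library's log2 deviation (mgcv 1.9.3, basis dimension 8), centred on the median. The smooth was fitted to genes above log2 CPM 2 and predicted for all 17299 genes tested with it. The offset also removes any real difference that follows GC content. Alternatives were DESeq2 1.42.0, upper-quartile scaling, no filter, a replicate block, the offset, and each library left out. Members and gene lists were chosen with earlier results of these data known. The text names all members, SPOP, every called further family gene, and up to 4 called genes of lowest adjusted p per other list. Some results that this rule covers are not reported here.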

Additional observations from a re-analysis of the deposited data

How the results depend on the processing

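MCL1, BBC3 and BCL2L11 kept direction and call in all 14 alternatives (log2 fold changes -0.76 to -0.55, 0.60 to 1.34 and 0.43 to 0.61), and BCL2 was called in none. With the GC and length offset, with or without the replicate block, PMAIP1 was at 0.025, BAK1 at -0.26, BCL2L1 at -0.22, BAX at -0.46 and BIK at 0.17. DESeq2 gave BAK1 -0.002 and BIK 0.42 (not called). Leaving out 1 library, with and without the offset, gave -0.66 to 0.052 for PMAIP1, -0.54 to -0.12 for BAX, -0.35 to 0.028 for BAK1, -0.25 to 0.041 for BCL2L1, 0.08 to 0.21 for BID and 0.10 to 0.49 for BIK.

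Of 30 other genes chosen by the naming rule, 16 kept direction and call under the offset, 6 lost the call and 8 reversed: BNIP3L 0.065, BAD -0.086 (-0.087 with the block), BOK -0.043, BCL2L12 -0.11, YWHAZ 0.058 (0.057), YWHAB 0.059, XIAP 0.031 (0.032) and BIRC3 0.39. None of these 30 reversed without the offset. Leaving out 1 library gave BNIP3L -0.57 to 0.075, BAD -0.12 to 0.35, BOK -0.071 to 0.36, BCL2L12 -0.14 to 0.22, CASP2 -0.37 to 0.096, YWHAZ -0.45 to 0.071, YWHAB -0.29 to 0.063, XIAP -0.65 to 0.068, BIRC3 -0.50 to 0.42, GSK3B -0.48 to 0.013 and ATF4 -0.0096 to 0.31.

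Genes called numbered 6337 to 10856 with 1 library left out (higher 2786 to 5225). Called genes ranged from 3 to 10 among other family genes, 2 to 8 for the apoptosome (2 with the offset), 1 to 10 for outer membrane partners (2 with upper-quartile scaling), 3 to 8 for MCL1 turnover and 5 to 14 for transcription regulators. Lone libraries were assumed to vary like the other genotype. Counts differed more between the F133V replicates than between the wild-type replicates (chi-square per degree of freedom 7.68 and 1.64). Calls with 1 library left out therefore do not compare directly with those from all libraries. The cause of these changes was not tested. The replicate block changed no member's call and 1 of 30 others (BCL2L12). Deviations of replicate 1 from the genotype means correlated at -0.0274 between genotypes. A single such correlation cannot settle whether replicate numbers pair the libraries, and the labels do not say. Depth limits BCL2, HRK and BCL2L15.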
